A study of Mus musculus with 6 samples.

Results

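Secreted Wnt antagonists are proteins that cells release to hold back Wnt signalling, and 9 of their genes are described here: Sfrp1, Sfrp2, Sfrp4, Sfrp5, Frzb, Dkk1, Dkk2, Dkk3 and Wif1. They were chosen by name, with earlier results of these data known. Each had exactly 1 row with its symbol alone on the array, so all 9 were measured, among 19938 genes tested. Wnt proteins bind Frizzled receptors and the co-receptors Lrp5 and Lrp6 and, through beta-catenin, keep the stem and progenitor cells at the base of the intestinal crypt dividing. The secreted frizzled-related proteins (Sfrp genes and Frzb) and Wif1 bind Wnt proteins directly, while Dkk1 and Dkk2 bind the co-receptors. In the gut wall such antagonists are known mainly as products of the mesenchyme, the connective tissue and muscle around the crypts, where hedgehog ligands from the epithelium are received.

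RNA levels were compared between whole colon of 3 mutant mice, VilCre;Ihhflox/flox, and that of 3 control mice, which the labels call wild type, with 1 Affymetrix Mouse Gene 1.0 ST array per mouse. In the mutants Cre recombinase under the villin promoter, active in intestinal epithelium, deletes Ihh, the gene of Indian hedgehog; whether the controls carried floxed alleles or Cre is not stated. Mutant and control of the same number were littermates, which gives 3 litters, and the mice were untreated as far as the labels say. The series' text puts the harvest at postnatal day 12 and the growth protocol at day 9 to 12. Values are log2 expression from RMA, a method that corrects background, normalizes between arrays and summarises the probes of a gene. A change is mutant minus control, a change of 1 being a doubling, and it passed where the limma fit with the litter as a block gave an adjusted p under 0.05 over all genes.

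Ihh and genes that respond to hedgehog signalling were read first, as a check of the labels. The controls had Ihh values of 8.50, 8.54 and 8.68 and the mutants 8.37, 8.22 and 8.22, and the change of -0.30 ± 0.09 (SE) did not pass (adjusted p = 0.139). The Ihh probes may lie partly outside the deleted part, which the labels do not name, but this was not tested. Ptch1, Gli1 and Hhip, which hedgehog signalling induces in receiving cells, fell, with changes of -1.44, -0.78 and -2.16 (adjusted p = 0.000493, 0.00355 and 0.000493).

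Of the 9 antagonist genes 1 rose (Sfrp1), 2 fell (Sfrp2 and Dkk3) and 6 did not pass. Over all genes 1.66% passed as higher in mutants and 2.11% as lower, 3.77% in either direction. The median change of the 9 was -0.06, beside 0.01 over all genes. Values of mutants and controls did not overlap for 4 of the 9, the 3 that passed and Sfrp4, against 19.8% of all genes, and the change had one sign in all 3 litters for 5 of the 9, against 35.9%. Array values of different genes rest on different probes, so levels are compared here within a gene only. In whole tissue, fewer cells of a type and less RNA per cell cannot be told apart.

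**Figure D1:**
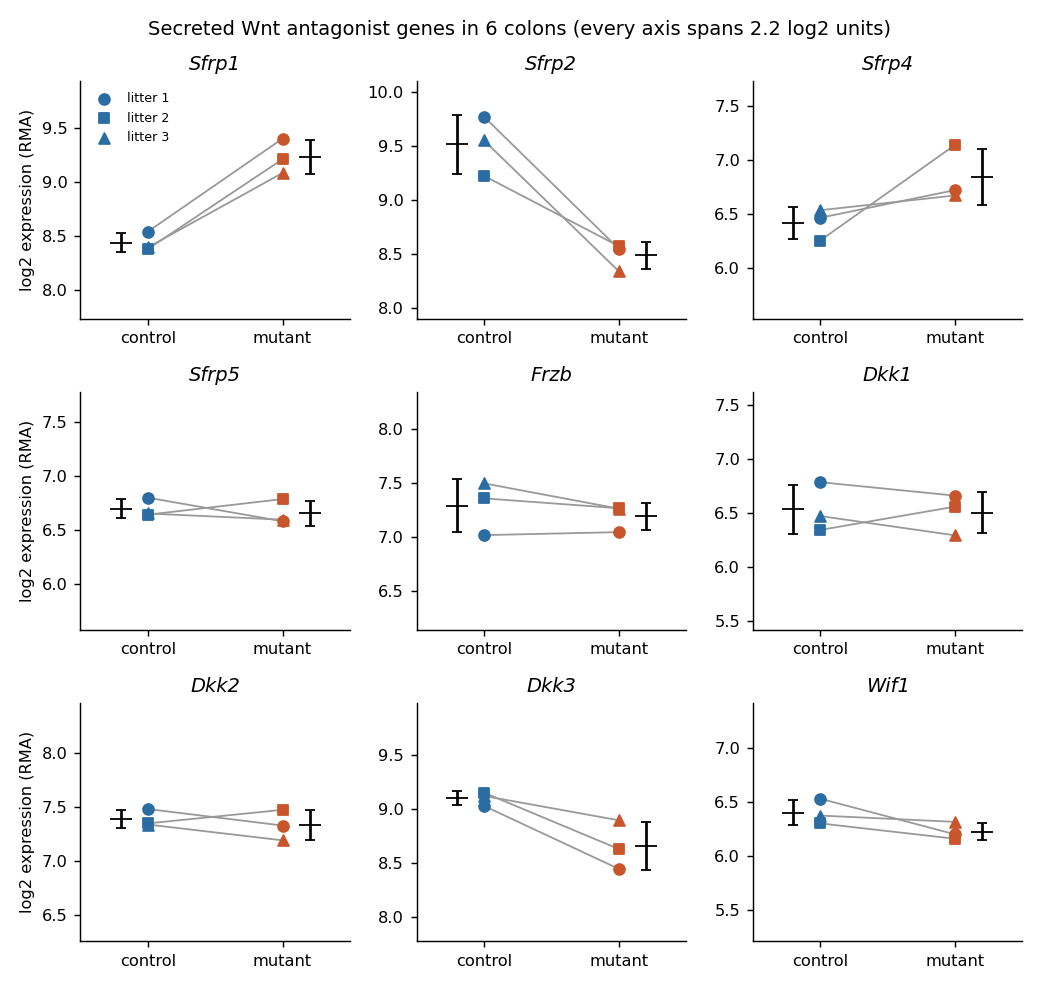
Log2 expression (RMA) of the 9 secreted Wnt antagonist genes in control (blue) and mutant (orange) colon; each symbol is 1 mouse, grey lines join littermates, and black bars give the group mean ± SD (n = 3). Sfrp1 lies higher and Sfrp2 and Dkk3 lie lower in the mutant of every litter, Sfrp4 is higher in every litter but mostly in litter 2, and the lines of Sfrp5, Frzb, Dkk1 and Dkk2 cross or run both ways.

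Among the secreted frizzled-related proteins, Sfrp1 and Sfrp2 went in opposite directions. Both proteins carry a cysteine-rich domain like that of Frizzled receptors, with which they bind Wnt proteins. In controls 1, 2 and 3 the level of Sfrp1 was 8.54, 8.38 and 8.39, and in mutants 1, 2 and 3 it was 9.40, 9.21 and 9.08; values below keep this order. Every mutant was above every control, and the spread within a group (SD 0.0891 in controls and 0.160 in mutants, n = 3 each) was small beside the gap. Sfrp1 rose by 0.79 ± 0.08 (SE), 1.73-fold, with adjusted p = 0.00344 and a 95% interval of 0.60 to 0.99. The litters gave nearly the same size, with changes of 0.86, 0.83 and 0.69.

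Sfrp2 was 9.77, 9.22 and 9.55 in controls and 8.55, 8.57 and 8.34 in mutants. The controls differed more among themselves than the mutants did (SD 0.276 against 0.128, n = 3 each), and still the lowest control lay above the highest mutant. Sfrp2 fell by 1.03 ± 0.12, 2.04-fold, with adjusted p = 0.00568 and a 95% interval of -1.31 to -0.74. Its changes were -1.22 in litter 1, -0.65 in litter 2 and -1.21 in litter 3, the smaller one coming from a litter whose control was the lowest of the controls. The log2 ratio of Sfrp1 to Sfrp2 within an array thus moved towards Sfrp1 by 2.09, 1.48 and 1.90 in litters 1, 2 and 3. This ratio was not tested on its own.

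Sfrp2 is the changed member for which a promoter sequence was in the RefSeq table (build GRCm38.p6). It is shown because Gli, Tcf/Lef and forkhead factors act in the pathways compared here. The window chr3:83766071-83766370, plus strand, runs from 250 bases before the start of the gene to 50 after it, and capitals mark CG dinucleotides, the sites of DNA methylation.
Sfrp2: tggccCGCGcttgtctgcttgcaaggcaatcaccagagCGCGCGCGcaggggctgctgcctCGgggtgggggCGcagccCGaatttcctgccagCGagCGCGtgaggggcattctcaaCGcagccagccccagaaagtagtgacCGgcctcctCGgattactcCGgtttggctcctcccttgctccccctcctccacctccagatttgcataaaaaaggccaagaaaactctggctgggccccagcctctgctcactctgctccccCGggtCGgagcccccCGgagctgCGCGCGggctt
This window holds 22 CG dinucleotides, beside a median of 7 and quartiles of 3 and 20 over 32851 promoters of the same length; methylation was not measured. Of the 9 members 6 have a promoter in that table, Sfrp2, Sfrp5, Frzb, Dkk1, Dkk2 and Wif1, with 9 CG (Dkk1) to 25 CG (Wif1). On either strand 0 of these 6 held the Gli motif GACCACCCA, the Tcf/Lef motif CTTTGAT or the forkhead motif GTAAACA. These letters occur in 0.253%, 3.73% and 3.65% of all promoters in the table. No match says only that these letters are not in these windows.

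Sfrp4, another Wnt-binding member of the family, stood at 6.47, 6.26 and 6.54 in controls and 6.73, 7.14 and 6.68 in mutants. The groups did not overlap, but mutant 2 stood well above the other mutants, and the changes were 0.26, 0.89 and 0.14 in litters 1 to 3. The mean change of 0.43 ± 0.14 did not pass (adjusted p = 0.182), and without litter 2 it was 0.20. Its 95% interval, which is not adjusted for the number of genes, was 0.10 to 0.75, and its SE was larger than that of 96.8% of genes. The signal of Sfrp4 was low, with a mean at percentile 34.2 of all genes, and background was not measured.

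The remaining members of this family did not pass. Frzb, also called secreted frizzled-related protein 3, was 7.01, 7.36 and 7.49 in controls and 7.04, 7.26 and 7.26 in mutants. Control 1 and mutant 1 were the lowest of their groups, and the change of -0.10 ± 0.09 had a 95% interval of -0.30 to 0.10 (adjusted p = 0.708). Sfrp5, a close relative of Sfrp1 and Sfrp2, was 6.80, 6.64 and 6.65 in controls and 6.58, 6.79 and 6.60 in mutants. It moved down in litters 1 and 3 and up in litter 2, by -0.04 ± 0.09 on average, with a 95% interval of -0.26 to 0.18 (adjusted p = 0.909). For both genes the interval leaves out changes of the size of Sfrp1's, but the signal of Sfrp5 was low and background was not measured.

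Of the Dickkopf genes Dkk3 fell and the co-receptor antagonists Dkk1 and Dkk2 did not pass. Dkk3, a divergent member of the family that is not a typical co-receptor antagonist, was 9.03, 9.15 and 9.13 in controls and 8.45, 8.63 and 8.90 in mutants. The controls lay close together (SD 0.0638), the mutants were spread wider (SD 0.226, n = 3 each), and all mutants were below all controls. Dkk3 fell by 0.44 ± 0.10, 1.36-fold, by 0.58, 0.52 and 0.23 in litters 1, 2 and 3. Its adjusted p of 0.0493 was just under the threshold: it was 0.0764 without the litter block, 0.121 without litter 1 and 0.115 without litter 2.

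Dkk1, which blocks the co-receptor Lrp6 and is itself induced by Wnt signalling in many tissues, was 6.79, 6.34 and 6.47 in controls and 6.66, 6.56 and 6.29 in mutants. The groups overlapped widely, and the change of -0.03 ± 0.10 had a 95% interval of -0.26 to 0.20 (adjusted p = 0.949). The signal of Dkk1 was low too, with a mean at percentile 32.2 of all genes. Dkk2, a relative of Dkk1, was 7.48, 7.34 and 7.33 in controls and 7.32, 7.47 and 7.19 in mutants. Here too the litters went both ways, with a mean change of -0.06 ± 0.09 and a 95% interval of -0.27 to 0.15 (adjusted p = 0.865).

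Wif1, Wnt inhibitory factor 1, was 6.53, 6.30 and 6.38 in controls and 6.20, 6.16 and 6.32 in mutants. Each mutant had less of it than its littermate, with changes of -0.33, -0.14 and -0.06, but mutant 3 overlapped the controls and the change of -0.18 ± 0.09 did not pass (adjusted p = 0.419). Wif1 was among the dimmest 30% of genes by mean signal, the only member of the 9 to be so. Background was not measured here, which leaves the size of the changes of these genes uncertain.

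**Figure D2:**
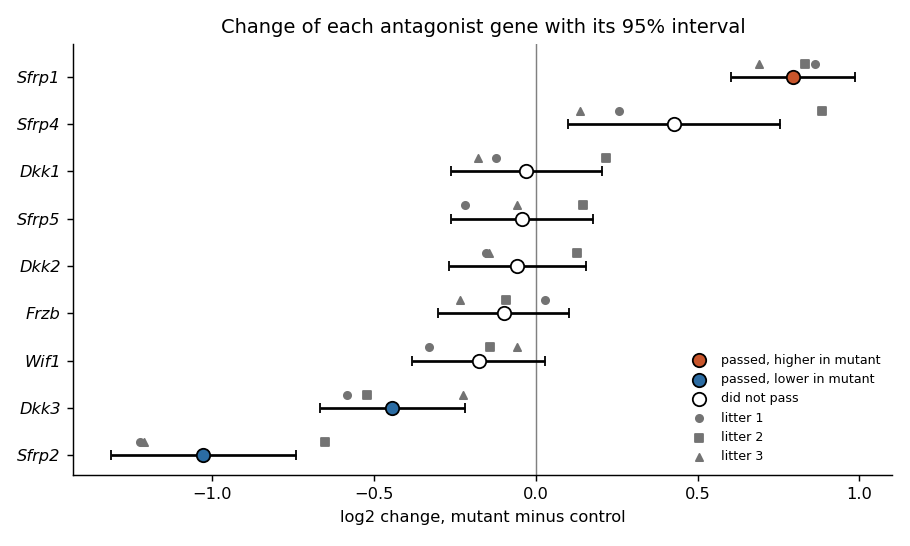
Change of each antagonist gene (log2, mutant minus control) with its 95% interval from the limma fit, not adjusted for the number of genes; grey symbols above each bar are the changes of the 3 litters. Sfrp1 (0.79) and Sfrp2 (-1.03) lie farthest from 0 on opposite sides, Dkk3 (-0.44) is the other gene that passed, and the intervals of Dkk1, Dkk2, Sfrp5, Frzb and Wif1 include 0.

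Of the 751 genes that passed, ordered by p, Sfrp1 was at rank 78, Sfrp2 at 128 and Dkk3 at 742, near the threshold. When every row of the table was tested instead of 1 row per named gene, 2 of 35557 rows passed in all and 0 of the antagonists or other Wnt pathway genes described here, with adjusted p = 0.0924 for Sfrp1, 0.117 for Sfrp2 and 0.240 for Dkk3. The hedgehog readout genes lost their calls there as well, with adjusted p = 0.0628 for Ptch1 and Hhip and 0.0941 for Gli1. Sfrp1 and Sfrp2 passed under the 11 other alternatives.

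By pattern over the 6 arrays, after each gene's own mean was taken off, the 3 genes most like Sfrp1 were Mir487b, a microRNA gene, Ifitm1, an interferon-inducible membrane protein, and Pde8b, a phosphodiesterase. Their root mean square differences from Sfrp1 were 0.0654, 0.0665 and 0.0742 among 17516 genes compared. The genes most like Sfrp2 were Frem2, a basement membrane protein, Slc17a4, an anion transporter, and Cxcl14, a chemokine, at 0.128, 0.146 and 0.150. These differences were larger than those from Sfrp1, but they are in log2 units and were not scaled. Sfrp2 itself changed more (-1.03 against 0.79) and its controls were spread wider (SD 0.276 against 0.0891). The genes most like Dkk3 were Tpm1, a tropomyosin of muscle and cytoskeleton, Ugdh, an enzyme of glycosaminoglycan synthesis, and Trpv2, a cation channel, at 0.0277, 0.0336 and 0.0474. Tpm1 passed in the limma fit (adjusted p = 0.0465), while Ugdh and Trpv2 did not (adjusted p = 0.0556 and 0.0920).

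Markers of the cell types of the gut wall moved in the same arrays, and their part in the antagonists' changes was not tested. Of 9 smooth muscle markers 6 fell, with a mean level of 11.52 to 11.60 in controls and 10.81 to 11.25 in mutants. Their median changes in litters 1, 2 and 3 were -0.76, -0.56 and -0.31, so that litter 3 had the smallest fall here and in Dkk3 (-0.58, -0.52 and -0.23). The smallest fall in litter 3 was not particular to smooth muscle. The median of the enteric glia markers (-0.27, -0.02 and -0.004) had it as well. Within the smooth muscle list, Tagln and Smtn had their smallest fall in another litter. Such a match over 3 litters, seen after the values were known, was not tested. Of 9 fibroblast markers 2 fell, Pdgfra and Mfap5, named after their values were seen; the mean level was 11.04 to 11.14 in controls and 10.74 to 10.96 in mutants. The median changes of the fibroblast markers were -0.33, -0.03 and -0.08, and its members differed widely. Mfap5, a microfibril protein and the fibroblast marker that fell most, had changes of -1.01, -1.12 and -1.15, beside -1.22, -0.65 and -1.21 for Sfrp2. Of the 9 fibroblast markers 7 stood below 0 and 2 above 0, Dcn at 0.11 and Pi16 at 0.14.

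Of 3 markers of interstitial cells of Cajal, the pacemaker cells of gut muscle, 1 fell, the chloride channel gene Ano1, named after its value was seen. Its changes were -0.94, -1.35 and -1.65 (adjusted p = 0.00276), and the mean level of the list was 9.85 to 9.93 in controls and 9.32 to 9.52 in mutants. The other markers of this list, Kit and Etv1, did not pass, with changes of 0.01 and -0.12. Of 7 blood endothelium markers 6 fell (mean level 8.91 to 9.20 in controls and 8.53 to 8.59 in mutants). Their median changes were -0.40, -0.48 and -0.62, with the largest fall in litter 3. Of 9 epithelium markers 0 passed (11.26 to 11.37 and 11.32 to 11.48). Their changes still ran from -0.43 to 0.63, with 5 above 0 and 4 below 0. Mutants and controls did not overlap for 4 of the 9, against 19.8% of all genes. Of 5 mesothelium markers 1 rose, Upk1b, named after its value was seen, and the mean level was 6.35 to 7.12 in controls and 6.71 to 7.26 in mutants. Mesothelium is the outer lining of the gut. Its median changes were 0.17, 0.48 and 0.21, so that litter 2 had the largest rise here and in Sfrp4. This was not particular to mesothelium. The medians of the epithelium markers (0.08, 0.13 and 0.12) and enteric neuron markers (-0.36, 0.24 and 0.03) were also highest in litter 2. Of 7 immune markers 2 rose, Itgam and S100a8, named after their values were seen (7.09 to 7.48 and 7.32 to 7.73). The median change of the 7 was -0.05, with 4 below 0 and 3 above 0. S100a8, a calprotectin subunit of neutrophils, rose by 0.74, 1.58 and 2.23 in litters 1 to 3. Of 8 small intestine markers 1 rose, Slc10a2, also named after its value was seen, with a mean level of 6.79 to 7.29 in controls and 7.40 to 7.80 in mutants. Of 6 enteric neuron, 4 enteric glia and 5 skeletal muscle markers measured, 0 passed.

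**Figure D3:**
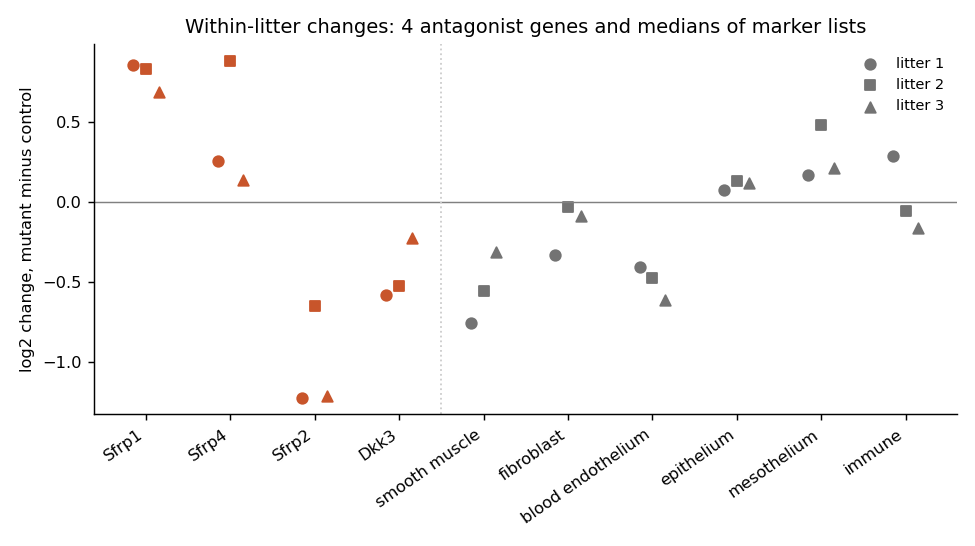
Change within each litter (log2, mutant minus control) of Sfrp1, Sfrp4, Sfrp2 and Dkk3 (orange) and, right of the dotted line, the median change of 6 lists of cell type markers (grey). Sfrp1 rose by 0.69 to 0.86 in each litter. Dkk3 and the smooth muscle median have their smallest fall in litter 3, where the blood endothelium median has its largest. Sfrp4 and the mesothelium and epithelium medians have their largest rise in litter 2. These matches over 3 litters were not tested.

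The other genes of the Wnt pathway were described from lists chosen with earlier results of these data known. Of 19 Wnt ligand genes 0 rose and 1 fell, Wnt5a, a ligand of mesenchyme that acts mostly without beta-catenin. It was 9.18, 9.05 and 9.01 in controls and 8.22, 8.52 and 8.42 in mutants, and fell by 0.69 ± 0.10 (adjusted p = 0.0137). The groups were well apart, as they were for Sfrp2. The median change of the ligands was -0.09, with 17 of 19 below 0, against 9478 of 19938 over all genes. It was -0.040 without litter 1 and -0.173 without litter 3. The medians within litters 1, 2 and 3 were -0.25, -0.05 and 0.03. Of the 19 ligands 6 were among the dimmest 30% of genes. Of the 4 R-spondin genes, whose products strengthen Wnt signalling, 0 passed, and their median was 0.08 (0.124 without litter 1 and 0.021 without litter 2).

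Of the genes needed to release Wnt proteins, Wls, their carrier to the cell surface, fell by 0.43 ± 0.08 (adjusted p = 0.0355, but 0.125 without litter 2 and 0.150 without litter 3). Porcn, which attaches their lipid, stood at 0.02 ± 0.08 and did not pass (adjusted p = 0.949). Of 16 receptor and co-receptor genes 1 passed, Fzd4, a Frizzled receptor known from blood vessels. It was 8.84, 8.98 and 8.70 in controls and 8.22, 8.28 and 8.19 in mutants, and fell by 0.61 ± 0.08 (adjusted p = 0.00910). The list median was -0.21, and -0.111 without litter 1. Of the 16 genes 12 stood below 0, against 9478 of 19938 over all genes. The co-receptors that Dkk1 binds, Lrp5 and Lrp6, stood at 0.06 ± 0.08 and 0.13 ± 0.08 and did not pass (adjusted p = 0.850 and 0.547).

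Of the 2 Kremen receptors, which act together with Dickkopf proteins, and the relatives Dkk4 and Dkkl1, 0 of 4 passed; Kremen1 stood at -0.24 ± 0.09 (adjusted p = 0.221). Of 14 other extracellular or membrane inhibitors of Wnt signalling 0 rose and 2 fell. These were Apcdd1, a membrane inhibitor, at -0.43 ± 0.08 (adjusted p = 0.0348, and 0.0551 to 0.0829 with any 1 litter left out), and Gpc3, a glypican of the cell surface, at -0.46 ± 0.10. The adjusted p of Gpc3 was 0.0493, 0.0723 without the litter block, 0.0610 without litter 2 and 0.260 without litter 3. The median of these inhibitors was -0.03, -0.098 without litter 3 and 0.013 without the dimmest 30% of genes.

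Of 14 measured target genes of beta-catenin 3 rose, 1 fell and 10 did not pass, with a median of -0.07 (-0.027 without litter 1). Axin2, a target and feedback inhibitor of the pathway, was 7.95, 8.05 and 7.98 in controls and 7.76, 7.99 and 8.01 in mutants. It stood at -0.08 ± 0.09 (adjusted p = 0.781), with overlapping groups. Lgr5, a receptor for R-spondins on crypt stem cells, rose by 0.68 ± 0.10 (adjusted p = 0.0140). The others that rose were Sox9, a crypt transcription factor, by 0.55 ± 0.08 (adjusted p = 0.0140, but 0.0845 without the litter block), and Myc, a growth regulator, by 0.48 ± 0.09 (adjusted p = 0.0327). Myc had adjusted p = 0.119 without the litter block, 0.115 without litter 2 and 0.0883 without litter 3. Ascl2, a stem cell transcription factor, fell by 0.53 ± 0.10 (adjusted p = 0.0286, and 0.115 without litter 3). The targets thus moved both ways, as the antagonists did.

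**Figure D4:**
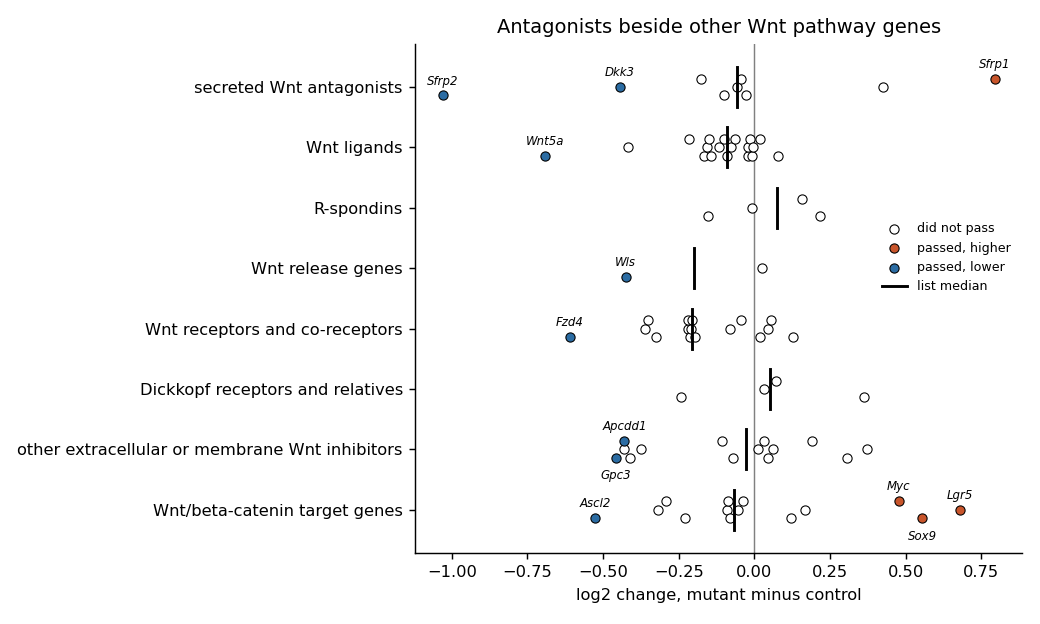
Change of each measured gene (log2, mutant minus control) in 8 lists of Wnt pathway genes; each circle is 1 gene, filled circles passed and are named, and black bars are list medians. The antagonists span -1.03 to 0.79, wider than any other list shown, while all list medians lie between -0.21 and 0.08.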

How the data were processed

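The authors deposited log2 expression values for 6 arrays, made with RMA per the submitters' processing notes; version, annotation and genome build: not given in the sources used here. This table held 35557 rows, array medians of 7.10 to 7.14 and correlations between arrays of 0.9855 to 0.9936, and no array was a copy of another. Precision is limited by 3 arrays per group; arrays carry no counts.

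Rows were named through the platform annotation: 21789 had 1 symbol, 1621 several and 12147 were unnamed here. The highest-mean row of each of 19938 genes entered limma 3.58.1 in R 4.3.3 (lmFit, eBayes without trend, two-sided, Benjamini-Hochberg over all genes, threshold 0.05), with the litter as a fixed block because the series' text states that same-numbered mice were littermates. After the group means were taken off, littermates correlated over genes by only 0.0128, 0.00516 and 0.0613, so the pairing rests on the text. The fit has 2 residual degrees of freedom per gene and a prior worth 5.85. Scripts were tested on simulated data.

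The members, lists and naming rule were chosen with earlier results of these data known. Named were all members, 4 hedgehog readout genes, every Wnt pathway list gene that passed plus Wls, Porcn, Lrp5, Lrp6, Kremen1, Axin2 and Lgr5, and the 3 genes most like each member that passed (predicted genes and olfactory and vomeronasal receptors left out). Cell type markers were given by list; Dkk4, Dkkl1 and the markers named singly were named outside this rule, after their values were seen. Alternatives were no litter block, array weights, a random litter block, eBayes with trend and robust, the dimmest 30% of genes left out, quantile normalization, median centring, the mean of a gene's rows, all rows, and each litter left out. Promoters came from RefSeq on GRCm38.p6.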

Additional observations from a re-analysis of the deposited data

How the results depend on the processing

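With 3 litters, and with no background level for dim probes, small changes such as those of Dkk1 or Wif1 were not detectable. The count of antagonists that rose was 1 under the other alternatives and 0 with all rows tested. The count that fell was 2 and became 1 with no replicate block, with the litter as a random block, with quantile normalization and with the mean of all rows, 0 with all rows tested, and 1 to 2 with a litter left out. Dkk3 was the gene lost in each case, with Sfrp2 when all rows were tested. The direction of Sfrp1, Sfrp2, Sfrp4 and Dkk3 held under all 12 alternatives, but not all of these could move it. With no litter block, a random block, or trend and robust, the change itself stayed the same number. The same was so with the dimmest genes left out, the mean of rows and all rows. Array weights, quantile normalization, median centring and leaving out a litter could move it. Over all genes 751 passed, 1246 with array weights and 2 with all rows, where the number tested rose to 35557 and the prior fell to 3.01 degrees of freedom; leaving out a litter gave 546 to 798. Ihh passed with array weights (-0.35, adjusted p = 0.0418). With a litter left out, the median of the other inhibitors ranged from -0.098 to -0.028; without the dimmest 30% of genes it was 0.013. Changes near 0 turned sign when a litter was left out: Sfrp5 ranged from -0.138 to 0.044, Dkk1 from -0.152 to 0.046 and Porcn from -0.026 to 0.069. Other changes that did not pass kept their sign but varied in size: Frzb from -0.163 to -0.032, Dkk2 from -0.150 to -0.010, Wif1 from -0.236 to -0.100 and Axin2 from -0.130 to -0.019. Over all alternatives the number of genes that fell was 0 to 2 of the Wnt ligands, 0 to 4 of the receptors, 0 to 1 of the release genes, 0 to 3 of the other inhibitors and 0 to 1 of the targets, and 0 to 3 targets, 0 to 1 other inhibitors and 0 to 1 Dickkopf relatives rose. Without the replicate block Dkk3, Gpc3, Sox9 and Myc lost their calls, and no other call of a named Wnt gene changed.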
